A study of Mus musculus with 111 samples.

Results

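The arcuate nucleus lies beside the tuberomammillary nucleus (TMN) at the base of the mouse hypothalamus, and 6 of its neuropeptide genes were followed through the TMN libraries: Agrp, Npy, Tac2, Cartpt, Ghrh and Kiss1. They were taken by name as genes of arcuate peptides, and each has 1 of the 54087 gene rows in the count tables. The question was how much of each row a library held and whether that differed by virus or by time of day.

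The libraries were made from the TMN of C57BL/6 mice (C57BL/6J in the study's methods) whose TMN had been infused with 1 of 3 adeno-associated viruses. The viruses were an empty vector (GFP), a vector for wild-type histone H3.3 (H3.3) and a vector for H3.3 with glutamine 5 changed to alanine (Q5A), which cannot take up a monoamine at that residue. All 3 vectors also make GFP, and the tissue was cut out under GFP light, so that its borders followed the spread of the virus and not a cell type. Tissue was taken at zeitgeber time (ZT) 0, 4, 8, 12, 16 and 20, where ZT0 is lights on and ZT12 is lights off, and the labels number the libraries by cohort (1 to 3) and replicate. The 110 libraries analysed were 32 of GFP, 39 of H3.3 and 39 of Q5A, with 4 to 8 in each of 18 groups. The 71 GFP and H3.3 libraries were pooled as controls. The labels do not say whether libraries came from separate animals, and the study's methods state that RNA-seq tissue was not pooled across animals. A pair of Q5A libraries of ZT4 agreed within sampling noise, and their mean was used as 1 sample.

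In the arcuate nucleus, 1 group of neurons makes agouti-related peptide (Agrp) and neuropeptide Y (Npy) and drives feeding. Neurons that make the precursor of cocaine- and amphetamine-regulated transcript peptide (Cartpt) together with pro-opiomelanocortin restrain feeding, and Cartpt is also made in the lateral hypothalamus by neurons with melanin-concentrating hormone. Another group makes kisspeptin (Kiss1), neurokinin B (Tac2) and dynorphin (Pdyn) and paces the release of gonadotrophin-releasing hormone, and the neurons of growth hormone-releasing hormone (Ghrh) act on the pituitary. The TMN itself is marked by histidine decarboxylase (Hdc), the enzyme that forms histamine.

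Libraries held 673306 to 3375352 reads in gene rows (median 1474422.5), which was 3.49% to 5.63% of their uniquely placed reads. The kit used keeps the strand, with a first read that runs antisense to the transcript, and the authors counted reads in the sense setting. Under it, Parpbp, which lies opposite the melanin-concentrating hormone gene Pmch, had a median of 13370 counts scaled to library size (CPM), against 49.1 CPM for Pmch itself. How much of a member's row came from its own mRNA was not tested, so that the values below are levels of the deposited rows. The check of the tissue by Hdc rested on few reads as well: its median was 4 reads, and 99 of 110 libraries had any.

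The members differed widely in how many reads they had. Agrp (ENSMUSG00000005705.10, chromosome 8, 105566698 to 105637393, minus strand, build GRCm38) was above 0 in 110 of 110 libraries, with 6 to 41 reads and a median of 22. Cartpt (ENSMUSG00000021647.7, chromosome 13, 99898489 to 99901091, minus strand) had 0 to 198 reads with a median of 13 and was above 0 in 105 libraries. Tac2 (ENSMUSG00000025400.11, chromosome 10, 127724478 to 127731768, plus strand) had 0 to 52 reads with a median of 5 and was above 0 in 99. These were the only 3 members with enough reads to enter the test of all libraries, which took 12300 rows.

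The other 3 members stood near the limit of detection. Npy (ENSMUSG00000029819.6, chromosome 6, 49822710 to 49829507, plus strand) had a median of 1.5 reads, a highest value of 12 and 28 libraries at 0. Ghrh (ENSMUSG00000027643.9, chromosome 2, 157329497 to 157347506, minus strand) had a median of 1 read, a highest value of 19 and 35 libraries at 0. Kiss1 (ENSMUSG00000116158.1, chromosome 1, 133321875 to 133329901, plus strand) was at 0 in 106 of 110 libraries, with 4, 2, 1 and 1 reads in the remaining 4. A count of 0 allows up to 3 reads, which was 0.823 to 5.11 CPM depending on the library, and this limit covers counting error only. Kiss1 was thus not detectable among the counted reads of most libraries, and 2 of the 4 with a read were Q5A libraries.

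Per kilobase of merged exons, the median level was 15.1 CPM for Agrp, 7.41 for Cartpt, 2.50 for Tac2, 1.76 for Npy and 1.3 for Ghrh. Agrp was therefore the highest of the members on this scale and its neuronal partner Npy was among the lowest. The spread between libraries followed another order. The ratio of the variance to the mean of the reads was 28.6 for Cartpt, 10.6 for Tac2, 4.89 for Ghrh, 2.80 for Npy and 2.53 for Agrp. Among the 1686 rows near Agrp in mean the median ratio was 6.84, and 1.19% of them had a lower ratio than Agrp. Among the 1836 rows near Cartpt in mean the median was 6.28, and 98.7% had a lower ratio than Cartpt. Agrp was thus one of the steadiest rows of its abundance and Cartpt one of the most variable.

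Agrp was also the member whose row overlaps another gene on the other strand. An exon of Agrp (chromosome 8, 105637280 to 105637393, 114 bases) lies within an exon of Ctcf, which encodes a factor that organises chromatin loops. The Ctcf row had 29 to 209 reads with a median of 75, and Spearman's rho between the Agrp and Ctcf rows over the 110 libraries was 0.21. In the sense setting, reads of Ctcf mRNA within the shared exon would be counted on the Agrp row and not on the Ctcf row. This rho therefore cannot show how many Agrp reads came from Ctcf mRNA. Kiss1 shares an exon (chromosome 1, 133321875 to 133321976, 102 bases) with Golt1a on the same strand, a row with 0 to 4 reads, and it shares all its exons with Gm28040, which has no row. No exon of Npy, Tac2, Cartpt or Ghrh overlapped an exon of another gene in the annotation used. How far these overlaps set the counts was not tested.

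The viruses were compared next, over all ZT. The mean and SD of Agrp were 17.4 ± 5.33 CPM for the 32 GFP libraries, 16.05 ± 6.61 for the 39 of H3.3 and 15.4 ± 4.26 for the 39 of Q5A. Tac2 was at 5.10 ± 3.87, 3.92 ± 6.10 and 4.60 ± 3.84 CPM in the same order. Cartpt was at 11.2 ± 10.4, 10.2 ± 7.96 and 14.5 ± 11.3 CPM. For each of these rows the ranges of the 3 viruses overlapped almost entirely. Cartpt ran from 0 to 54.3 CPM in GFP with a median of 9.09, from 0 to 29.8 in H3.3 with a median of 7.98, and from 0 to 39.0 in Q5A with a median of 12.4.

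**Figure D1:**
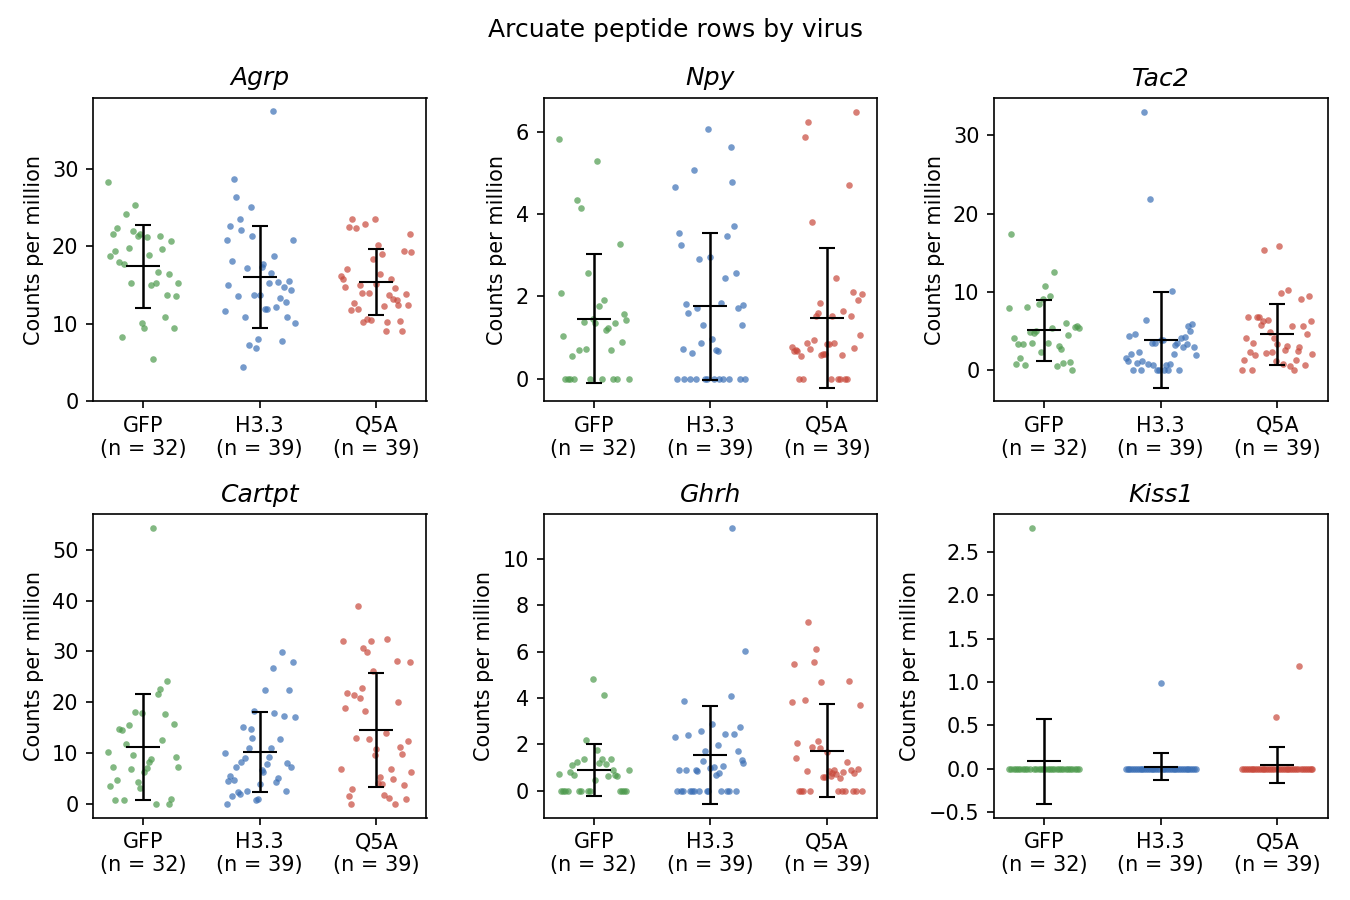
Scaled counts (CPM) of the 6 member rows in each library by virus, 1 point per library in GFP (n = 32), H3.3 (n = 39) and Q5A (n = 39), with the mean and SD in black (vertical scales differ between panels). The 3 viruses overlap in every panel, Agrp is above 0 in all libraries, and Kiss1 is at 0 in all but 4.

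At an adjusted p of 0.01, none of the 3 tested members was called between Q5A and controls, or between H3.3 and GFP, by edgeR's quasi-likelihood test with Benjamini-Hochberg adjustment, and 0% of all 12300 rows passed in either comparison (691 and 453 rows had an unadjusted p under 0.05). The log2 difference of Q5A minus controls was 0.46 ± 0.24 (SE) for Cartpt (95% interval -0.01 to 0.93; edgeR, adjusted p = 0.823). It was -0.12 ± 0.10 for Agrp (interval -0.31 to 0.08) and -0.02 ± 0.25 for Tac2 (interval -0.52 to 0.48). The interval of Agrp was thus the narrowest of the 3. H3.3 minus GFP was -0.11 ± 0.12 for Agrp, -0.39 ± 0.31 for Tac2 and -0.16 ± 0.29 for Cartpt. With cohort as a covariate the first became -0.01 and the second -0.61, and in cohort 1 alone they were -0.06 and -0.21, with no call. The Cartpt value turned to 0.07 without the single GFP library of ZT12, cohort 2 replicate 1, which held 198 Cartpt reads.

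The rows of few reads overlapped between viruses in the same way. Npy ranged from 0 to 5.81 CPM in GFP with a median of 1.21, up to 6.06 in H3.3 with a median of 1.31, and up to 6.48 in Q5A with a median of 0.838. Ghrh ranged from 0 to 4.81 CPM in GFP (median 0.667), up to 11.3 in H3.3 (median 0.983) and up to 7.28 in Q5A (median 0.858). Npy, Ghrh and Kiss1 could be tested only in a fit with no filter on low counts. There, Ghrh differed by 0.53 ± 0.31 (log2, SE; edgeR, adjusted p = 0.721) between Q5A and controls and by 0.69 ± 0.39 between H3.3 and GFP. Npy differed by -0.12 ± 0.29 and 0.22 ± 0.35. No fold is given for Kiss1, which was at or under the limit of detection in every group.

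Time of day was then examined with all libraries in 1 fit. Agrp was highest at ZT0 (18.3 ± 4.47 CPM, SD, n = 15) and lowest at ZT12 (13.9 ± 4.39, SD, n = 20), and its means lay between these values at the other ZT. Tac2 ran from 3.35 ± 2.7 CPM at ZT16 to 5.88 ± 7.68 at ZT4, and Cartpt from 8.29 ± 9.28 at ZT0 to 14.1 ± 9.51 at ZT16. In each case the largest distance between 2 ZT was smaller than or close to the SD within a ZT. None of the 3 passed an adjusted p of 0.05 for ZT (edgeR, adjusted p = 0.319 for Agrp, 0.533 for Tac2 and 0.616 for Cartpt), where 7.24% of all rows did.

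In the controls alone, 6.08% of rows passed the same test and again no member did, with an adjusted p of 0.14 for Cartpt, 0.298 for Agrp and 0.878 for Tac2 (edgeR). In Q5A, 0.188% of rows passed and no member did, with an adjusted p of 0.663 for Tac2, 0.665 for Cartpt and 0.908 for Agrp. The rank test JTK_CYCLE, which compares each row with waves of 8 to 24 h and could use 5 members, also called 0. Its adjusted p covers the waves tried for a row but not the number of rows, for which a q value is given where a member passed. In controls its adjusted p was 0.18 for Agrp, 0.21 for Cartpt, 0.336 for Ghrh and 1 for Npy and Tac2, where 13.6% of 18456 rows passed 0.05. In Q5A it was 0.237 for Cartpt, 0.301 for Tac2, 0.565 for Npy and 1 for Agrp and Ghrh, where 4.06% passed. In the fit with no filter, however, Cartpt did pass for ZT both in controls (edgeR, adjusted p = 0.0442, against 4.04% of rows) and in Q5A (edgeR, adjusted p = 0.00306, against 2.01% of rows).

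The time courses of Cartpt in controls and in Q5A were set side by side, and the test of their difference is given further on. In controls it went from a median of 4.43 CPM at ZT0 (0 to 10.2, n = 9) through 7.26 at ZT4 (0.656 to 15.2, n = 11), 9.64 at ZT8 (0.688 to 18.3, n = 13) and 7.94 at ZT12 (1.01 to 54.3, n = 13) to 17.4 at ZT16 (0 to 29.8, n = 14), and stood at 7.98 at ZT20 (0 to 28.0, n = 11). In Q5A the medians were 12.9 CPM at ZT0 (0 to 32.1, n = 6), 21.5 at ZT4 (2.84 to 39.0, n = 7), 22.2 at ZT8 (9.63 to 32.1, n = 6), 5.24 at ZT12 (1.75 to 32.4, n = 7), 6.77 at ZT16 (0 to 28.0, n = 7) and 8.01 at ZT20 (0.926 to 27.9, n = 6). The highest control median thus fell in the dark phase and the highest Q5A medians in the light phase. The control median was exceeded by 4 of 6 Q5A libraries at ZT0, 6 of 7 at ZT4 and 5 of 6 at ZT8, but 3 of 7 at ZT12, 2 of 7 at ZT16 and 3 of 6 at ZT20. The groups nevertheless overlapped at every ZT. For Agrp the control median was exceeded by 1 of 6, 2 of 7, 2 of 6, 4 of 7, 1 of 7 and 3 of 6 Q5A libraries from ZT0 to ZT20, and for Tac2 by 3 of 6, 6 of 7, 3 of 6, 3 of 7, 2 of 7 and 3 of 6.

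**Figure D2:**
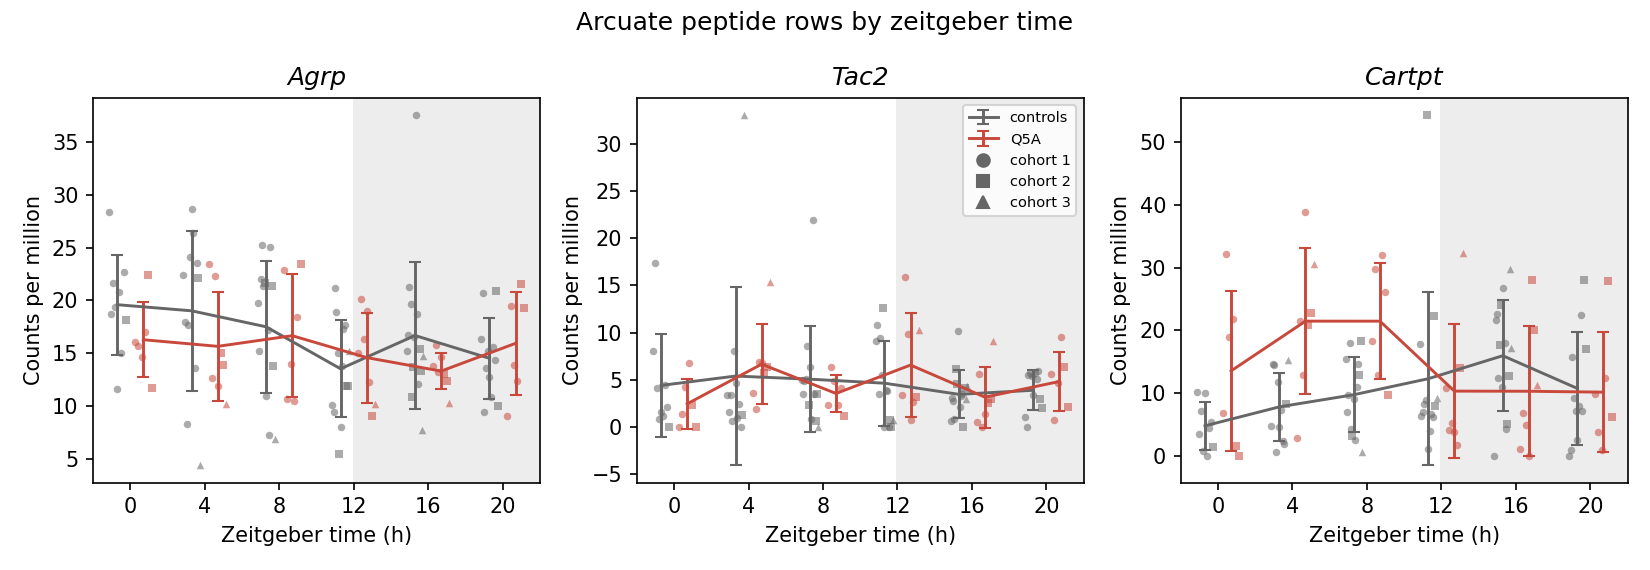
Scaled counts (CPM) of Agrp, Tac2 and Cartpt against zeitgeber time in controls (grey) and Q5A (red), each point 1 library with its shape giving the cohort, lines joining the means and bars showing the SD, with the dark phase shaded. Cartpt is higher on average in Q5A than in controls at ZT0, ZT4 and ZT8 and lower at ZT12 and ZT16, where the control mean at ZT12 falls from 12.3 to 8.8 CPM, below the 10.3 of Q5A, without GFP cohort 2 replicate 1, while the courses of Agrp and Tac2 lie within the SD of each other.

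At single ZT, the log2 difference of Cartpt in Q5A minus controls was 1.46 ± 0.62 at ZT0, 1.47 ± 0.41 at ZT4 and 1.15 ± 0.35 at ZT8 (SE). It was -0.45 ± 0.54 at ZT12 (0.11 ± 0.45 without GFP ZT12 cohort 2 replicate 1), -0.57 ± 0.49 at ZT16 and -0.09 ± 0.55 at ZT20. None passed an adjusted p of 0.01 (edgeR, adjusted p = 0.888, 0.42 and 0.188 at the first 3 ZT), and 0% of rows passed at any ZT. An unadjusted p under 0.05 (edgeR) was found for 473 of 9315 rows at ZT0, 1022 of 9673 at ZT4 and 1856 of 10251 at ZT8. At ZT12, ZT16 and ZT20 it was found for 284 of 10118, 154 of 10596 and 1095 of 9588 rows. Agrp differed by between -0.31 and 0.14 in the 6 fits and Tac2, which had enough reads only at ZT12, by 0.26 ± 0.60. None of these 13 tests of members passed, and neither did any of the 11 between H3.3 and GFP, where 0% of rows passed as well. Between these control viruses, Cartpt in H3.3 minus GFP was -1.18 ± 0.57 at ZT12 and 1.09 ± 0.59 at ZT20 (SE). The ZT12 value includes GFP ZT12 cohort 2 replicate 1. At ZT4, ZT8 and ZT16 the difference was -0.41 ± 0.58, 0.07 ± 0.48 and -0.06 ± 0.50, and at ZT0 Cartpt was not tested.

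**Figure D3:**
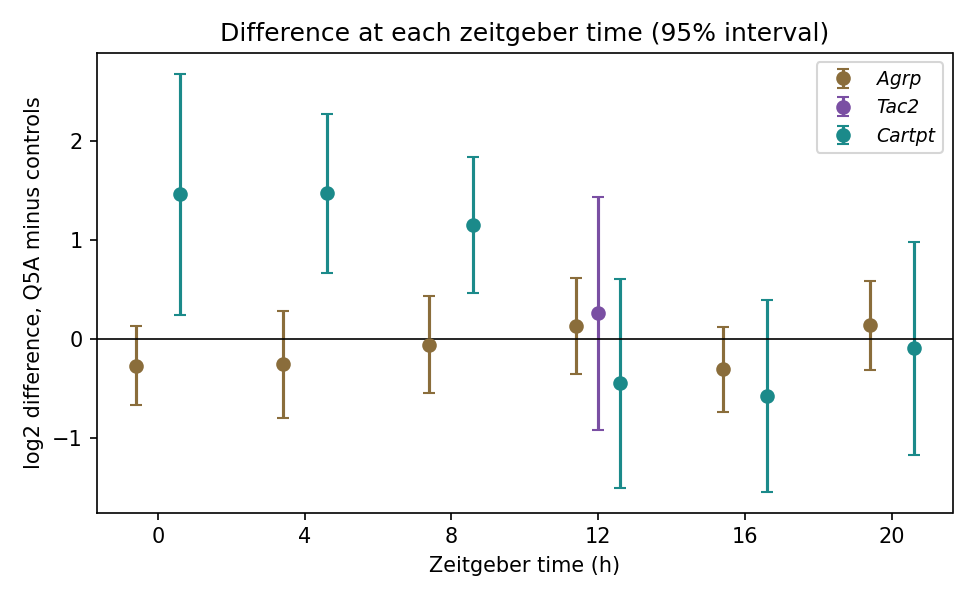
Log2 difference of Q5A minus controls at each zeitgeber time for Agrp, Tac2 and Cartpt, with points for the edgeR estimate and bars for the 95% interval (Tac2 entered the test only at ZT12). The Cartpt intervals lie above 0 at ZT0, ZT4 and ZT8 and include 0 at the later times, and no point passed the adjusted threshold. Intervals are not adjusted for the number of rows, and many other rows had an unadjusted p under 0.05 (edgeR; 1856 of 10251 at ZT8).

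A direct test of whether the 24 h rhythm differed between Q5A and controls gave Cartpt an adjusted p of 0.224 (edgeR; unadjusted p = 0.00117), so that the difference did not pass over all libraries. Agrp and Tac2 had adjusted p of 0.873 and 0.943, and 0.0905% of all rows passed. In cohort 1 alone, which held 26 Q5A and 52 control libraries, Cartpt did pass (edgeR, adjusted p = 0.00151), against 6.68% of all rows. It was still called in that cohort without the Q5A library highest in Cartpt there (ZT4 replicate 4; adjusted p = 0.0056). With cohort as a covariate over all libraries the adjusted p was 0.156.

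Within cohort 1, Cartpt in Q5A was at 19.9 ± 10.4 CPM (SD, n = 4) at ZT0, 19.05 ± 15.3 (n = 4) at ZT4 and 23.9 ± 8.09 (n = 5) at ZT8. It was at 5.18 ± 3.44 (n = 5) at ZT12, 3.2 ± 3.2 (n = 4) at ZT16 and 6.72 ± 5.29 (n = 4) at ZT20. The controls of that cohort went from 5.20 ± 3.82 (n = 8) at ZT0 to 14.6 ± 9.33 (n = 8) at ZT16. All 4 Q5A libraries of cohort 1 at ZT16 lay below the control median of that ZT, and all 4 at ZT0 and all 5 at ZT8 lay above it. The effect of ZT on Cartpt in Q5A passed in cohort 1 (edgeR, adjusted p = 0.00671, against 5.36% of rows), while in the controls of cohort 1 it did not (adjusted p = 0.274, against 13.7% of rows). JTK_CYCLE likewise called Cartpt in Q5A of cohort 1 (adjusted p = 0.00662) and called Ghrh (adjusted p = 0.0219), both with a period of 24 h and a peak at ZT4, where 7.4% of rows were called. Over all rows their q values were 0.268 and 0.46, so that neither passed once the number of rows was counted.

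The few Q5A libraries of cohorts 2 and 3 matched this in part. At ZT4 they were high, at 20.8, 22.8 and 30.6 CPM, and at ZT8 the library of cohort 2 was at 9.63 CPM. At ZT0 both libraries of cohort 2 were low in Cartpt, at 0 and 1.55 CPM. At ZT16 they were high, at 20.03 and 28.0 CPM, and the library of cohort 3 was at 11.3. At ZT12 the library of cohort 2 was at 14.0 CPM and that of cohort 3 at 32.4, both above the highest value of cohort 1 at that ZT, 10.9 CPM. The low dark-phase values of cohort 1 at ZT12 and ZT16 were therefore not seen in the other cohorts, each of which had 1 or 2 Q5A libraries per ZT where it had any.

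Ghrh, a row of few reads, also had its 3 highest Q5A means of cohort 1 at ZT0, ZT4 and ZT8. In Q5A it was at 3.19 ± 1.84 CPM (SD, n = 4) at ZT0, 3.01 ± 3.3 (n = 4) at ZT4 and 3.07 ± 2.25 (n = 5) at ZT8, and at 0.339 ± 0.409 (n = 4) at ZT16. These are 1 to 8 reads per library at ZT0 and ZT8 and at most 1 read at ZT16. In cohort 2 the Q5A means of Ghrh were 0 CPM at ZT0, 0.95 at ZT4, 2.98 at ZT16 and 1.84 at ZT20 (n = 2 each). Its single Q5A libraries were at 0.602 CPM at ZT8 and 0.7 at ZT12. Single Q5A libraries of cohort 3 were at 5.57 CPM at ZT4, 0 at ZT12 and 0.913 at ZT16. The cohort 1 order of Ghrh was thus not seen in cohort 2. In the fit of all libraries with no filter the 24 h rhythm of Ghrh did not differ between Q5A and controls past the threshold (edgeR, adjusted p = 0.147).

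Tac2 gave 1 call between the control viruses. At ZT12 it was at 3.52 to 12.6 CPM in GFP (median 9.31, n = 6) and at 0 to 3.93 CPM in H3.3 (median 0.698, n = 7), so that the groups overlapped only at their edges. The row was too low there for the filtered fit. With no filter the log2 difference of H3.3 minus GFP was -2.76 ± 0.56 (SE; edgeR, adjusted p = 0.00742), where 0.0923% of rows passed. In that fit 4658 of 28175 rows had an unadjusted p under 0.05 (edgeR), and in the filtered fit of ZT12 2877 of 9774 did. The paper also lists more genes that differed between GFP and H3.3 at ZT12 than at any other ZT. With no filter the Tac2 difference was -2.06 at ZT0, 1.01 at ZT4, 0.09 at ZT8, 0.29 at ZT16 and 0.22 at ZT20, with no call. A fit of all libraries with 18 group means called 0 of 18 member tests between H3.3 and GFP. Q5A stood between the control viruses at that ZT, at 0.762 to 15.9 CPM with a median of 3.35 (n = 7).

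The cohorts were compared after their values had been seen, with ZT and virus in the fit. Agrp had a median of 16.4 CPM in cohort 1 (n = 78), 13.8 in cohort 2 (n = 24) and 10.2 in cohort 3 (n = 8), and passed an adjusted p of 0.05 (edgeR, adjusted p = 0.00721). Tac2 had medians of 3.54, 2.41 and 6.72 CPM and passed as well (adjusted p = 0.00977). Cartpt had medians of 7.23, 15.5 and 16.2 CPM and did not pass (adjusted p = 0.0671, and 0.233 without the GFP library of ZT12 with 198 reads). Since 31.4% of 13254 rows passed this test, 2 of 3 members is a count from a background in which many rows differed. Cohort 3 held no GFP library and cohort 2 held 4, against 28 in cohort 1, so that cohort and virus were partly mixed.

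**Figure D4:**
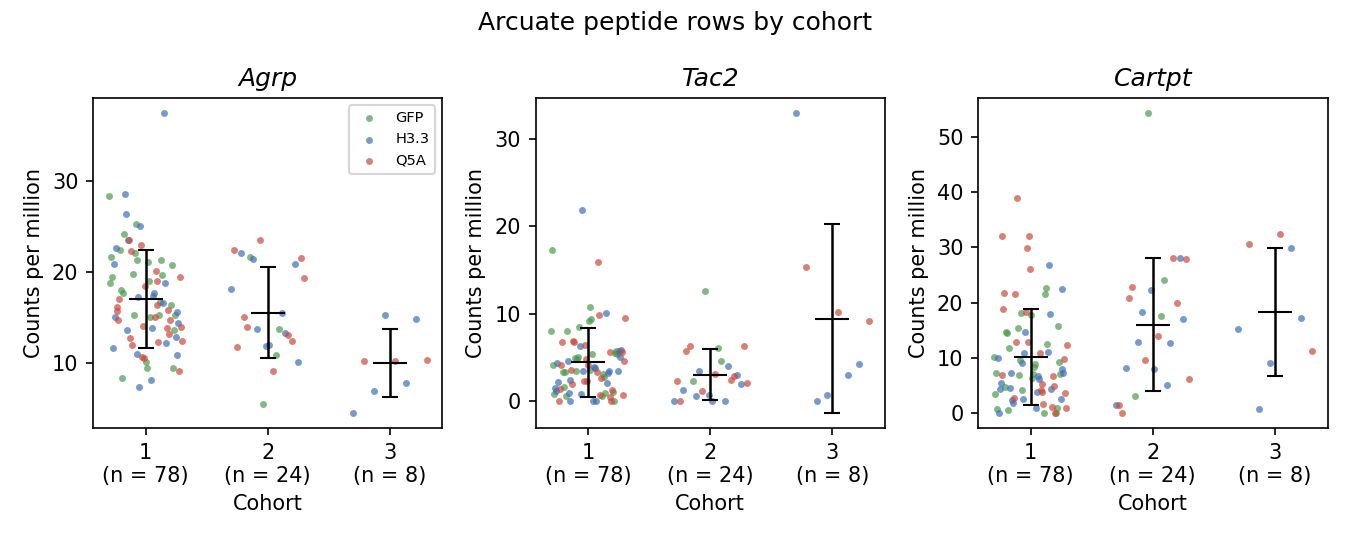
Scaled counts (CPM) of Agrp, Tac2 and Cartpt in each library by cohort (1, n = 78; 2, n = 24; 3, n = 8), with colour for the virus and the mean and SD in black. Agrp declines from a median of 16.4 CPM in cohort 1 to 10.2 in cohort 3, and Cartpt is higher in cohorts 2 and 3 with wide overlap.

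Whether the members rose and fell together across libraries was described by Spearman's rho over the 110 libraries, which differ in depth, cohort and group. Agrp and Npy, the peptides of 1 neuron type, gave -0.21. Agrp was also negatively related to Cartpt (-0.20), Tac2 (-0.18) and Ghrh (-0.11). Of the remaining pairs, Cartpt and Ghrh had the highest value, 0.55, and 0.47 after the mean of each group was taken out. Cartpt and Tac2 gave 0.39, Npy and Tac2 0.28, and the other pairs 0.08 to 0.13. The members thus did not rise and fall as 1 set. The values of rho between the library total and the member in CPM were 0.37 for Cartpt, 0.27 for Ghrh, 0.13 for Tac2, -0.02 for Npy and -0.15 for Agrp, and the part of depth in these relations was not tested.

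**Figure D5:**
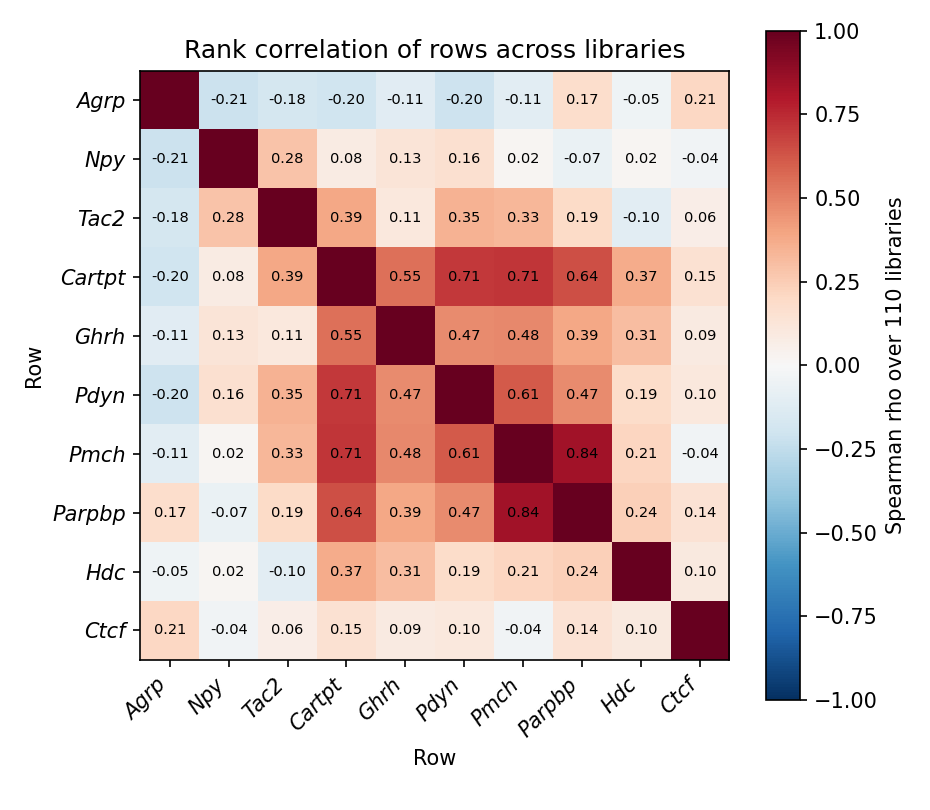
Spearman's rho between rows over the 110 libraries, in CPM, for 5 members, for Pdyn, Pmch and Parpbp, for Hdc and for Ctcf. Cartpt forms a block with Ghrh (0.55), Pdyn (0.71), Pmch (0.71) and Parpbp (0.64), and Agrp is at or below 0.21 with every other row.

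The rows most like each of the 3 more abundant members were taken from the 12299 others in the test. For Cartpt they were RP23-83I13.10 (rho 0.72), Resp18 (0.72), Tspyl2 (0.72), Pmch (0.71) and Vat1 (0.71), and 141 rows exceeded 0.5. Resp18 encodes a protein of secretory granules, and Pmch, the precursor of melanin-concentrating hormone, belongs to the lateral hypothalamus. Cartpt was also related to the opposite-strand row Parpbp (0.64) and to the dynorphin precursor Pdyn (0.71). For Tac2 they were Ecel1 (0.55), Bex1 (0.54), Rab3b (0.52), Tmem130 (0.52) and RP24-247B20.1 (0.52), with 9 rows over 0.5. For Agrp they were AC114598.1 (0.59), RP24-118K20.1 (0.59), AC087062.5 (0.58), RP23-185A18.12 (0.58) and Rnf141 (0.58), of which 4 have clone-based names, and no other member was among the 112 rows over 0.5. With the group means taken out the Cartpt list gave 0.67 to 0.72.

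Pmch was read at the same ZT. In Q5A its median was 73.2 CPM at ZT0, 89.3 at ZT4 and 109.9 at ZT8, against 24.8, 16.2 and 34.3 CPM in controls, at ZT12 it was 52.5 in Q5A and 14.6 in controls, at ZT16 56.6 and 66.2, and at ZT20 54.4 and 59.7. At ZT12 the order of the medians was thus opposite to that of Cartpt, which was at 5.24 in Q5A and 7.94 in controls. Its 24 h rhythm did not differ between Q5A and controls past the threshold (edgeR, adjusted p = 0.268, and 0.156 in cohort 1). Pdyn passed that test in cohort 1 (adjusted p = 0.035) and not over all libraries (0.386). Hdc did differ over all libraries (adjusted p = 0.0361), and rho between Hdc and Cartpt was 0.37. How much of the Cartpt reads came from the arcuate nucleus, the lateral hypothalamus or elsewhere was not tested. In bulk tissue, fewer cells of a type and less RNA per cell cannot be told apart.

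Few libraries stood high in several members at once. When the 11 highest libraries were listed for each of Npy, Tac2, Cartpt and Ghrh, 80 of 110 libraries were on no list, 20 on 1, 6 on 2, 4 on 3 and 0 on all 4. The 4 were Q5A ZT4 cohort 1 replicate 4, Q5A ZT4 cohort 3 replicate 1, GFP ZT12 cohort 2 replicate 1 and H3.3 ZT16 cohort 3 replicate 1. The first held 12 Npy, 13 Tac2, 75 Cartpt and 14 Ghrh reads, with 23 Agrp reads. The third held 7, 46, 198 and 15, with 20 Agrp reads, and it had 2705042 gene reads. All 4 lay below the median of all libraries in Agrp, at 5.48 to 11.95 CPM against 15.3. Summed over the 5 members without Agrp, the level ran from 1.69 to 72.9 CPM in GFP (median 17.5), from 0.688 to 53.3 in H3.3 (median 14.4) and from 0.559 to 59.2 in Q5A (median 21.4).

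The upstream sequences of Cartpt and of its closest member, Ghrh, are shown because these rows were the most alike and were the only members called by JTK_CYCLE in Q5A of cohort 1. RefSeq windows (build GRCm38.p6) were found for 5 of the 6 members, in 6 windows, of which Ghrh had 2. The 250 bases before each start were searched on both strands for the E-box CACGTG, to which the clock factors CLOCK and BMAL1 bind, for the cyclic AMP response element TGACGTCA and for TATAAA. Capitals mark a match.
Cartpt, chr13:99900684-99900933, minus strand: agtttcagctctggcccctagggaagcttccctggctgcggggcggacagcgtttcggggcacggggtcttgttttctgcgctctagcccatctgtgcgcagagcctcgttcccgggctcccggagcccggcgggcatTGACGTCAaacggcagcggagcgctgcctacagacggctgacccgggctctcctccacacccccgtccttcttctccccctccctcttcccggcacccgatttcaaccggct
Ghrh, chr2:157337427-157337676, minus strand: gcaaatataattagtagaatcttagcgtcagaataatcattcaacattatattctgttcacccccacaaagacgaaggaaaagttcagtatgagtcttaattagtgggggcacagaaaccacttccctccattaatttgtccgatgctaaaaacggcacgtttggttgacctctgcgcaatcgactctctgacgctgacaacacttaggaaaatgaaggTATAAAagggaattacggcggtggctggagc
The Cartpt window held 1 TGACGTCA, which 1.55% of 32851 windows of that length hold. The Ghrh window shown held 1 TATAAA, found in 12.4% of windows. The other Ghrh window (chr2:157346656-157346905), which is not shown, held no match. None of the 6 windows held CACGTG, which 6.02% of windows hold. These are matches of letters and not measured binding.

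The other genes of these pathways were read from lists chosen with earlier results of the data known. Of 14 genes of other arcuate neurons, 8 entered the fit of all libraries and 0 passed between Q5A and controls, with a median log2 difference of 0.14 against 0.01 over all rows. For ZT, the transcription factor gene Otp passed over all libraries (edgeR, adjusted p = 0.0117) and Pomc, the precursor of the melanocortins, passed in Q5A (adjusted p = 0.00294, and 0.0126 without Q5A ZT16 cohort 1 replicate 3, the library with the most Pomc reads). With cohort and replicate number as a replicate block, Pomc did not pass in Q5A (edgeR, adjusted p = 0.205). Beside it, the summed level of 6 rows listed as pituitary reached 1055 CPM in Q5A, against 291.4 in GFP and 341.7 in H3.3, with medians of 204.6, 184.5 and 188.1. Of the 6 rows, Chga and Tshb were above 0 in all 110 libraries, with medians of 141.9 and 46.0 CPM. Platr9 averaged 25.8 CPM over the Q5A libraries, against 0.731 for GFP and 0.861 for H3.3, and Gh averaged 2.58, 0.125 and 0.057, while Cga, Platr9, Prl and Gh were at 0 in the median library. The highest library held 986 Platr9 reads, against a mean of 11.8 over all libraries, and for Gh 74 reads against 1.31. Single libraries thus weighed heavily in these averages. The part of pituitary tissue in the Pomc result was not tested. Of 8 receptor genes, 2 were tested and 0 passed for virus or ZT, the highest being Kiss1r at 11.98 CPM and Tacr3 at 5.98 CPM on average. Of 6 genes for the processing of peptide precursors, all 6 were tested and 0 passed for virus, with a median log2 difference of 0.16 in Q5A. For ZT, Pam, which amidates peptides, passed over all libraries (adjusted p = 0.0336) and in controls (adjusted p = 0.0379), and the carboxypeptidase gene Cpe passed in controls (adjusted p = 0.0249).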

How the data were processed

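The edgeR p-values weigh a difference against the spread between libraries, and those of JTK_CYCLE come from the ranks of libraries. RNA of the TMN was sequenced after infusion of GFP, H3.3 or Q5A viruses. Per the labels and the study's methods, the authors aligned reads to GRCm38 with STAR (2.7.11b), and the deposited counts are whole reads on exons per gene name, made with htseq-count (HTSeq 2.0.5, union mode, stranded option yes, Ensembl annotation). The members, lists and tests were chosen with earlier results of these data known. A further 18 tables, of wild-type mice without virus, match no sample label given and were not analysed here. Of 111 tables, 110 libraries were kept after 1 pair that differed in 3 rows was merged to its mean.

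Counts were tested with edgeR (4.0.16, R 4.3.3) by quasi-likelihood tests after filterByExpr (minimum count 10, minimum total 15) and TMM scaling, with Benjamini-Hochberg adjustment over all tested rows. CPM are the deposited counts divided by the TMM-scaled library size that edgeR gave and multiplied to the usual scale, with no prior count, and 95% intervals of log2 differences come from the SE by the normal distribution. Virus was tested with ZT in the model, ZT with virus, and the 24 h rhythm as the interaction of arm with a cosine and sine of ZT. Thresholds were an adjusted p of 0.01 for virus and 0.05 for time. SE are the log2 difference divided by the root of F. JTK_CYCLE was rewritten in Python (3.11.15), with exact null distributions and 20 templates, on counts divided by DESeq2 (1.42.0) size factors, over rows above 0 in at least 50% of libraries. Simulated data were used to test the edgeR fits of virus and of ZT over all libraries, that of the rhythm difference, and JTK_CYCLE. The other fits were not tested in this way. Exons were read from GENCODE M21 (GRCm38).

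All 6 members are named. Of the listed markers, those that passed a test of virus or time are named, otherwise the 2 highest of a list. Rows most like a member are the 5 of highest Spearman's rho for members with a mean of at least 5 reads. DESeq2, other scaling, no filter, cohort terms, a replicate block and left-out libraries were tried as alternatives. The number of reads per library limits the precision, and intervals cover the spread between libraries.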

Additional observations from a re-analysis of the deposited data

Results flagged for a closer look

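Within single combinations of virus and ZT, 23 of 94 sets of libraries (24.5%) had 1 library far from the others by Dixon's test at its 95% critical value. Chance gives about 1 in 20 for normally distributed values, which counts near 0 are not, so that 24.5% cannot be set against that rate. A set in which only 1 library had a read, as for Kiss1, is always flagged. Many of the 23 flags rest on few reads, and none was weighed further. For Agrp, H3.3 ZT16 cohort 1 replicate 2 stood at 37.5 CPM, against 7.75 to 18.8 in the other 7.

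For Cartpt, 3 libraries of ZT12 were high: GFP cohort 2 replicate 1 at 54.3 CPM (others 6.29 to 17.8), H3.3 cohort 2 replicate 1 at 22.3 CPM (others 1.01 to 9.15) and Q5A cohort 3 replicate 1 at 32.4 CPM (others 1.75 to 14.0). For Tac2, H3.3 ZT4 cohort 3 replicate 1 was at 33.0 CPM (52 reads; others 0 to 4.64), H3.3 ZT8 cohort 1 replicate 3 at 21.9 CPM, H3.3 ZT16 cohort 1 replicate 1 at 10.1 CPM and Q5A ZT4 cohort 3 replicate 1 at 15.3 CPM.

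For Npy the libraries were GFP ZT12 cohort 1 replicate 3 (5.285 CPM), GFP ZT4 cohort 1 replicate 5 (4.33 CPM), H3.3 ZT4 cohort 3 replicate 1 (5.075 CPM), Q5A ZT16 cohort 2 replicate 2 (4.71 CPM), Q5A ZT20 cohort 1 replicate 3 (6.48 CPM) and Q5A ZT0 cohort 2 replicate 1, which was low at 0 CPM. For Ghrh, H3.3 ZT16 cohort 3 replicate 1 was at 11.3 CPM (19 reads), Q5A ZT16 cohort 2 replicate 2 at 4.71 CPM and Q5A ZT20 cohort 2 replicate 1 at 3.68 CPM. GFP ZT0 cohort 1 replicate 1 (0.726 CPM) and GFP ZT20 cohort 1 replicate 5 (0.897 CPM) had the only Ghrh read of their sets.

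For Kiss1 the 4 libraries with a read were GFP ZT8 cohort 1 replicate 2 (2.77 CPM, 4 reads), H3.3 ZT12 cohort 1 replicate 2 (0.983 CPM), Q5A ZT16 cohort 2 replicate 2 (1.18 CPM) and Q5A ZT8 cohort 2 replicate 1 (0.602 CPM).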

How the results depend on the processing

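The number of members called stayed at 0 for virus over all ZT, for Q5A against controls at single ZT and for ZT over all libraries under every alternative run. With no filter on low counts it became 1 for ZT in controls and 1 for ZT in Q5A (Cartpt in both) and 1 for H3.3 against GFP at single ZT (Tac2 at ZT12). In cohort 1 only it became 1 for ZT in Q5A and 1 for the difference in 24 h rhythm (Cartpt in both), with or without Q5A ZT4 replicate 4 or ZT16 replicate 3, and 2 for JTK_CYCLE in Q5A (Cartpt and Ghrh). Leaving out 1 replicate number of cohort 1 gave 0 to 1 for JTK_CYCLE in controls (Cartpt without number 1, Agrp without number 3) and 0 for the other counts. For the cohorts the count was 2 and, with no filter, 3. The cause of these changes was not tested. The log2 difference of Tac2 between Q5A and controls, -0.02, turned positive without single libraries or numbers, at 0.01 without GFP ZT12 cohort 2 replicate 1 and without Q5A ZT16 cohort 1 replicate 3 (0.0139 and 0.00625), and ran from -0.0993 to 0.0805 when each replicate number was left out. That of Cartpt between H3.3 and GFP turned from -0.16 to 0.0702 without GFP ZT12 cohort 2 replicate 1, and ran from -0.213 to -0.105 when each replicate number was left out.

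With cohort and replicate number as a replicate block, 0 members were called in the tests of virus, ZT and rhythm, Tac2 at ZT12 was -2.46 in H3.3 minus GFP (edgeR, adjusted p = 0.2), and over all ZT that difference was -0.667 for Tac2 and -0.00813 for Agrp. Without replicate 3, it was -0.714 for Tac2. Same-numbered libraries of cohort 1 did not deviate together (72 pairs, median correlation 0.02, from -0.31 to 0.43, 22 above 0.1), so that the numbers were not taken to pair the samples. These alternatives were fixed with earlier results known, and those without single named libraries were added after the data had been seen. With medians of 1.5 reads or fewer, the few counted reads limit what Npy, Ghrh and Kiss1 can show. The parts of depth and of the counting strand in this were not tested.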

Other observations

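Genes of the tissue around the arcuate nucleus were read from lists as well, and 0 of them passed between viruses over all ZT. Of 6 tanycyte genes, cells that line the third ventricle, 1 was tested and 0 passed for ZT, and the highest of them were Dio2 at 3.46 CPM and Col23a1 at 3.02 CPM on average. Of 4 genes of histaminergic neurons, Slc18a2, the vesicular monoamine transporter, passed for ZT over all libraries (edgeR, adjusted p = 0.00266) and in controls (adjusted p = 0.0342), and Hdc passed in controls (adjusted p = 0.0124). Of 4 mammillary genes, Cck passed over all libraries (adjusted p = 0.00867) and in controls (adjusted p = 0.0329). Of 4 ventromedial genes, Fezf1 passed over all libraries (adjusted p = 0.0457). Of 3 lateral hypothalamic rows, led by Parpbp and Pmch, 0 passed for ZT.

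Of 5 striatal genes, Ppp1r1b passed for ZT in all 3 fits (edgeR, adjusted p = 3.8e-05 over all libraries, 4.57e-05 for controls, 0.00327 for Q5A), and its 24 h rhythm differed between Q5A and controls (adjusted p = 0.0337). With cohort and replicate number as a replicate block, Ppp1r1b did not pass for ZT in Q5A (edgeR, adjusted p = 0.806) or for the rhythm difference (adjusted p = 0.222). Penk (adjusted p = 0.0102) and Rgs9 (adjusted p = 0.0167) passed for ZT in controls. Of 6 pituitary genes, Tshb passed over all libraries (adjusted p = 0.0297) and Platr9 in Q5A (adjusted p = 0.000393). Without Q5A ZT16 cohort 1 replicate 3, the library with the most Platr9 reads, that row had too few reads to enter the test over Q5A, and in cohort 1 without that library it passed (adjusted p = 0.0149). With the replicate block over all Q5A libraries, Platr9 did not pass (edgeR, adjusted p = 0.344). The summed level of the striatal list spanned 4.37 to 476.5 CPM across GFP libraries, 13.5 to 539.4 across those of H3.3 and 27.4 to 847.4 across those of Q5A, and the part of uneven dissection in the members' spread was not tested.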
